A study of Homo sapiens with 20 samples.

Results

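Chaetocin at 12 h was compared with DMSO vehicle at 12 h in HCT116 cells, an established human colorectal carcinoma line, by RNA sequencing of poly(A) RNA. Cells had been given chaetocin at a final concentration of 500 nM or the solvent at 0.5%. Each group held 2 libraries that the labels call biological replicates, so the comparison used 4 of the 20 libraries of the series. It covered all 15377 genes that the deposited chaetocin table for 12 h lists. For 3 further comparisons, libraries of cells treated for 12 h with chetomin at 500 nM, for 12 h with MeS-chaetocin at 500 nM, the sulfide-depleted analog, and for 5 h with chaetocin at 500 nM or DMSO at 0.5% were used, 2 of each. All groups were the same line grown in the same medium, and no genetic change was made. By its title, the study asked how chaetocin and p300/CBP, a pair of acetyltransferases, modulate metal response genes.

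Chaetocin is a fungal product with disulfide bridges. It has been described as an inhibitor of histone H3K9 methyltransferases such as SUV39H1 and as a compound that reacts with cellular thiols. Cells answer damaged or misfolded protein with several known programmes. HSF1 switches on chaperones of the cytosol, the sensors of the endoplasmic reticulum (ER) switch on chaperones of that organelle, ATF4 and CHOP act when translation initiation is slowed, and NRF2 switches on thiol and glutathione enzymes. MTF1 binds zinc and switches on metallothioneins, small cysteine-rich proteins that hold metal ions.

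Values are the authors' deposited normalized values, whose unit the headers do not name and which follow transcript length. Differences are log2(value + 1) of chaetocin minus DMSO with their standard error (SE, 2 libraries per group), from limma fitted to all genes. A gene counts as called where its p, after Benjamini-Hochberg adjustment across the whole table, was under 0.05. These p-values measure the spread between the libraries only, and an exact two-sided permutation test of 2 against 2 cannot go below 0.333. The values are shares of a library, so fewer cells and less RNA per cell cannot be told apart. The 4 libraries had summed values of 886218 to 1012951, with 10.8% to 11.7% of the sum in 10 genes. The median gene differed between replicates by 0.148 (log2) in chaetocin libraries and 0.252 in DMSO libraries. Of 20 colorectal epithelium markers 11 are listed, and EPCAM, KRT8, KRT18 and CDH1 among them were not called. CDH17, CDX1, CEACAM5, CEACAM6, FABP1, GPA33, LGALS4, TFF3 and VIL1, also markers of that epithelium, are not in the table.

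Sequences upstream of chaperone genes are shown because they hold the elements known to bind the factors of these programmes. They are from RefSeq promoter windows on GRCh38.p14 (250 bases before to 50 after the start of a gene). Of the genes tested, 11247 have a window. The ER stress element, bound by ATF6 with NF-Y, was searched as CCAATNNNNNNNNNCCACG on both strands; it always contains a CCAAT box. It is in 0.0806% of the 27305 windows of the table, in 0.142% of those of tested genes, in 7 of 24 windows of the ER chaperone list (29.2%) and in none of 25 of the cytosolic chaperone list. Those 7 genes are HSPA5, XBP1, HSP90B1, CRELD2, CANX, ERO1B and CALR. In the following stretches capitals mark the element on either strand.
HSPA5 (chr9:125241376-125241424, minus strand): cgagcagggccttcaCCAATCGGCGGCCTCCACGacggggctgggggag
XBP1 (chr22:28800588-28800636, minus strand): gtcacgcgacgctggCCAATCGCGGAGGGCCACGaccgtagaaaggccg
CRELD2 (chr22:49918539-49918587, plus strand): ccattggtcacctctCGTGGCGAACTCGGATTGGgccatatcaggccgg
HSP90B1 (chr12:103930201-103930354, plus strand): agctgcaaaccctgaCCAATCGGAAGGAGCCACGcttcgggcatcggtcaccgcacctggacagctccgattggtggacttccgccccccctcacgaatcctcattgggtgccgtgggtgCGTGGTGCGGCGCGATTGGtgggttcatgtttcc

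The heat shock element, bound by HSF1, was searched as GAANNTTCNNGAA or its complement TTCNNGAANNTTC. It is in 0.487% of all windows, 0.356% of those of tested genes and 5 of 25 windows of the cytosolic chaperone list (20%), those of DNAJA1, DNAJB6, HSPA8, CHORDC1 and SERPINH1. It is in none of 24 windows of the ER list. In CHORDC1 the 3 matches overlap each other and form a single run of capitals. No match in the other windows says only that these letters are not there.
CHORDC1 (chr11:90223072-90223124, minus strand): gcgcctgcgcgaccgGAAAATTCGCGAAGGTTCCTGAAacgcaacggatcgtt
HSPA6 (chr1:161524451-161524493, plus strand): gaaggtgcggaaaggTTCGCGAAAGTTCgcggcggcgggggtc
The metal response element, bound by MTF1, was searched as TGCACNC or TGCGCNC on both strands. It is short and is in 38.9% of the windows of tested genes (29.3% of all windows), and in both windows found for the metallothionein list, those of MT1X and MT2A.
MT1X (chr16:56682305-56682438, plus strand): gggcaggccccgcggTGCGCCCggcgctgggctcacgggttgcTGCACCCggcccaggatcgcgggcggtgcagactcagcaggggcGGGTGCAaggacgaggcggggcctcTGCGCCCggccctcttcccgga

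Chaetocin was followed by a broad change of the transcriptome. Of 15377 genes, 3102 rose (20.2% of those tested) and 4128 fell (26.8%), 47.0% in all, and 8512 had an unadjusted p under 0.05. Large changes were mostly increases: 414 genes rose and 72 fell by at least 2 on the log2 scale, and 91 rose by at least 3. The 414 had a median DMSO value of 0.542 and the 72 one of 23.6. On the log2(value + 1) scale a gene with a low DMSO value can fall only little. A gene silent with DMSO is listed only where a treated group has it, so large increases and decreases were not equally open to all genes. The median difference over all genes was -0.16. On the authors' CPM scale, which shifts chaetocin libraries by 0.37, that median was 0.14 and 4375 genes rose while 2140 fell (67.2% of calls higher, against 42.9%). Under median-of-ratios scaling 3813 rose and 2773 fell (57.9%), and by the authors' deposited q-value 5390 rose and 3877 fell (58.2%). No gene called under these 3 settings had been called in the opposite direction without them. The group values did not overlap for 75.0% of genes.

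**Figure D1:**
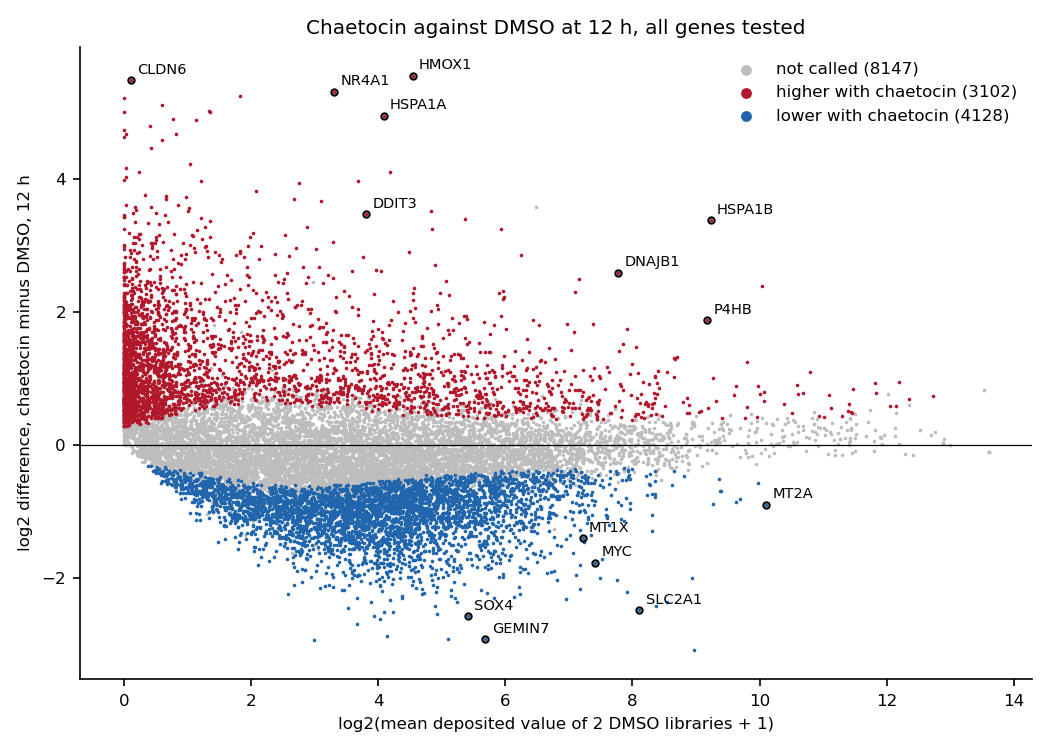
Each point is a gene tested. The horizontal axis is log2 of the mean deposited value of the 2 DMSO libraries plus 1, and the vertical axis is the log2 difference of chaetocin minus DMSO at 12 h. Red points are the 3102 genes called higher, blue the 4128 called lower and grey those not called. The largest increases lie at low DMSO levels, while HSPA1B, DNAJB1 and P4HB are increases at high levels.

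Far fewer genes were called when a chaetocin library was left out. The spread between replicates then came from the DMSO pair alone, whose median gene differed by 0.252, against 0.148 for chaetocin. The median difference over all genes was -0.15 without chaetocin replicate 1 and -0.17 without replicate 2, beside -0.16 with both. The part of the spread in the lost calls was not tested. Without chaetocin replicate 1, 1465 genes rose and 168 fell, and without chaetocin replicate 2, 1442 rose and 196 fell. Of the 89 increases and 71 decreases among named genes, 44 and 19 kept their call without chaetocin replicate 1, and 44 and 20 without chaetocin replicate 2. Leaving out a DMSO library gave 7526 (replicate 1) or 7939 (replicate 2) called genes.

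HMOX1, the enzyme that degrades haem (chromosome 22, 35380361 to 35394214, plus strand, GRCh38), had the largest increase on the log2(value + 1) scale among the genes the naming rule admits; by the ratio of means PPP1R27 (108-fold), TRIM22 (86.9-fold) and other genes at low DMSO values exceeded it. Its values were 1108 and 1069 with chaetocin, against 19.8 and 24.8 with DMSO, which is 48.8-fold of the means and a difference of 5.55 ± 0.15 (adjusted p 0.000129, limma). NR4A1, an immediate early nuclear receptor, stood at 434 and 353 with chaetocin, against 9.13 and 8.68 with DMSO (5.31 ± 0.15, adjusted p 0.000129). CLDN6, a tight junction protein of embryonic epithelia, stood at 54.3 and 40.7 with chaetocin and at 0 and 0.16 with DMSO (5.48 ± 0.24, adjusted p 0.000197). CLDN6 was near absent with DMSO. The naming rule for the largest changes admits only genes whose groups do not overlap, so the lack of overlap in these 3 genes follows from that choice. The other large increases were HBA2 (5.25) and HBA1 (4.88), the adult alpha globins, CYSRT1 (5.02), HSPA1A (4.95), the pseudogene IFITM3P2 (4.90), the antisense RNAs LINC00659 (5.00) and FO704657.1, and the lincRNAs U62317.5 and AC092687.3 (5.11). FO704657.1 and U62317.5 are listed at 0 in both DMSO libraries, and at 30.3 and 31.8 and at 31.2 and 42.2 with chaetocin. Like CLDN6, such genes could be listed only through a treated group, so that their direction is fixed by the listing. The strand setting of the authors' counting is not given, so antisense RNAs cannot be told apart from their partners here. HBA1 and HBA2 are near-identical and share reads.

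Large decreases were found in genes of several functions. GEMIN7, a subunit of the SMN complex that assembles spliceosomal particles, stood at 5.38 and 6.2 with chaetocin and at 46.5 and 54.6 with DMSO (-2.92 ± 0.18, adjusted p 0.000422). SLC2A1, the glucose transporter GLUT1, stood at 52.5 and 44.4 with chaetocin, against 262 and 288 with DMSO (-2.48 ± 0.14, adjusted p 0.000417). The replicates of each group lay close together for both genes, while the lack of overlap between their groups follows from the naming rule. Further large decreases were those of WNT16 (-2.92), a Wnt ligand, EPN3 (-2.87), an endocytic epsin, the zinc finger gene ZNF629 (-2.69), SOX4 (-2.58) and NR2F1 (-2.55), transcription factors, NEK3 (-2.52), a kinase, PGAP4 (-2.45), an enzyme of GPI anchors, and CTDSP2 (-2.43), a phosphatase. NEK3 varied between replicates, at 1.23 and 3.01 with chaetocin against 10.1 and 25.6 with DMSO, and lost its call without either chaetocin library (adjusted p 0.153 without replicate 1 and 0.0978 without replicate 2).

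**Figure D2:**
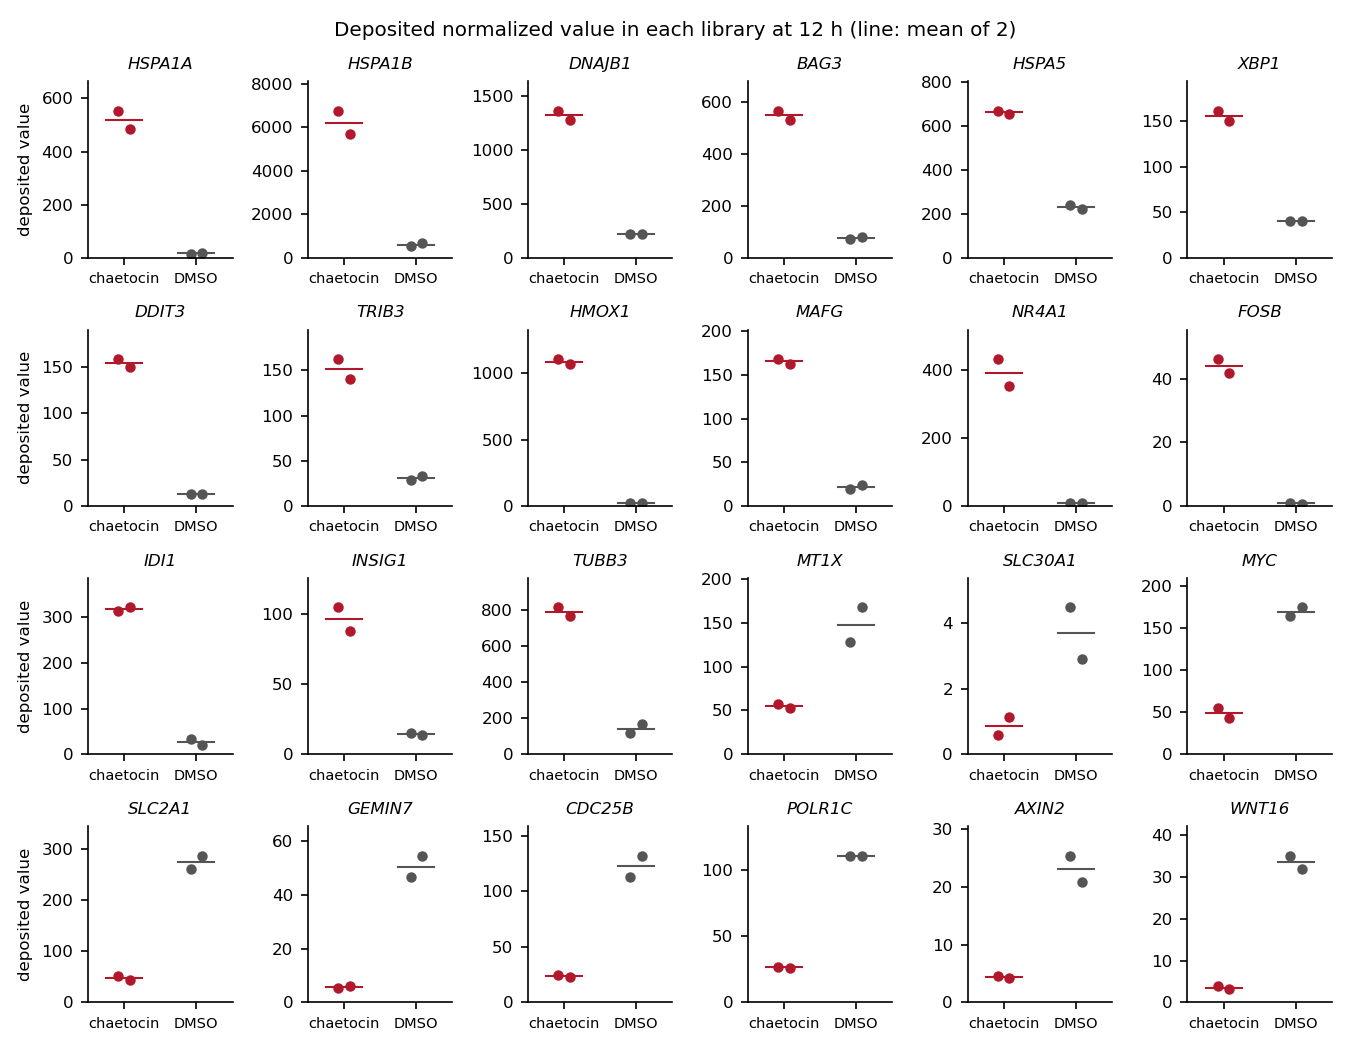
Deposited normalized value of 24 genes in each library at 12 h, chaetocin in red on the left and DMSO in grey on the right of each panel. Points are libraries and lines are means of 2, and each vertical axis starts at 0. The chaetocin and DMSO points do not overlap in any panel, as is the case for 75.0% of all genes tested. HSPA1A to TUBB3 are higher with chaetocin and MT1X to WNT16 are lower.

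Chaperones of the cytosol, whose genes HSF1 controls, rose together. Of 28 members, all listed, 21 rose and 2 fell, with a median of 0.91 beside -0.16 for all genes. HSPA1B, a stress-inducible HSP70, stood at 6760 and 5684 with chaetocin, against 521 and 677 with DMSO (3.38 ± 0.18, adjusted p 0.000314). HSPA1A, its near-identical neighbour on chromosome 6 (31815464 to 31817946, against 31827735 to 31830255 for HSPA1B), which shares reads with it, stood at 553 and 484 with chaetocin, against 13.4 and 18.5 with DMSO (4.95 ± 0.18). DNAJB1, the HSP40 partner of HSP70, stood at 1358 and 1278 with chaetocin and at 218 and 219 with DMSO (2.59 ± 0.12, adjusted p 0.000212). BAG3, a co-chaperone of selective autophagy, rose 7.29-fold (2.85 ± 0.12, adjusted p 0.000197). These 4 genes were many times higher in every chaetocin library than in any DMSO library. Abundant constitutive members rose less: HSPA8 stood at 3858 and 3738 with chaetocin, against 1897 and 1653 with DMSO (1.10 ± 0.14). HSF2, a second heat shock factor, and BAG1, a nucleotide exchange factor of HSP70, fell by 0.71 and 0.63, and HSF1 itself was at -0.48 (adjusted p 0.0866). HSPA6, a strictly inducible HSP70 outside the list and named after its values were seen, stood at 20.8 and 17.9 with chaetocin, against 0.2 and 0.17 with DMSO (4.10 ± 0.21). On the authors' CPM scale 23 members rose and none fell. With chaetocin replicate 1 or replicate 2 left out, 7 members were called higher in each case and none lower.

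Of the genes whose heat shock element was found, DNAJA1 (1.74), DNAJB6 (0.90), HSPA8 and CHORDC1 (1.16) rose, and SERPINH1, a collagen chaperone, was at 0.31 (adjusted p 0.145). Windows of genes that rose held the element in 0.853% (17 of 1993) and windows of genes that fell in 0.124% (4 of 3235).

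ER chaperones and sensors were mostly higher. Of 25 members, all listed, 16 rose and 2 fell, with a median of 0.85. HSPA5, the main ER chaperone BiP and holder of an ER stress element 66 bases before its start, stood at 669 and 656 with chaetocin, against 241 and 220 with DMSO (1.52 ± 0.12, adjusted p 0.000565). P4HB, a protein disulfide isomerase, stood at 2212 and 2005 with chaetocin and at 522 and 634 with DMSO (1.87 ± 0.15, adjusted p 0.000562). DNAJB9, an ER co-chaperone, stood at 45.5 and 36.9 with chaetocin and at 8.17 and 4.79 with DMSO (2.53 ± 0.26, adjusted p 0.00101). The groups did not overlap in any of these genes, as was the case for 75.0% of all genes tested. XBP1, a transcription factor of the unfolded protein response, rose by 1.93, HERPUD1, a part of ER-associated degradation, by 1.91, CRELD2 by 1.66, HSP90B1, the ER HSP90, by 1.29 and CANX, a lectin chaperone, by 1.02. ERO1B (0.49, adjusted p 0.0879) and CALR (0.08, adjusted p 0.655) also have the element and were not called. ATF6, the sensor that becomes a transcription factor, fell: 2.35 and 2.54 with chaetocin, against 8.54 and 5.95 with DMSO (-1.24 ± 0.24, adjusted p 0.00796), as did ERO1A, an oxidase (-0.55). On the authors' CPM scale 19 rose and 1 fell. Leaving out chaetocin replicate 1 or replicate 2 left 4 increases in each case and no decrease.

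The ATF4 and CHOP pathway had calls in both directions, beside 20.2% higher and 26.8% lower over all genes. Of 32 genes 30 are listed, 11 rose and 6 fell, with a median of 0.04, and 14 rose and 2 fell on the authors' CPM scale. DDIT3, which encodes CHOP, stood at 159 and 150 with chaetocin, against 13.1 and 12.9 with DMSO (3.47 ± 0.14, adjusted p 0.000197). ATF3, a stress-induced repressor, stood at 193 and 204 with chaetocin, against 11 and 12.6 with DMSO (3.96 ± 0.14, adjusted p 0.00019). TRIB3, a pseudokinase downstream of CHOP, stood at 162 and 141 with chaetocin, against 28.2 and 32.7 with DMSO (2.28 ± 0.15, adjusted p 0.000422). EIF2AK3, the ER kinase PERK, rose by 2.49 and PPP1R15A, the GADD34 subunit that restores translation, by 2.18. ATF4 mRNA was not called (-0.36 ± 0.13, adjusted p 0.0564), and ATF5 (-1.59) and the kinases EIF2AK4 (-1.12) and EIF2AK1 (-0.70) fell. The 20 aminoacyl-tRNA synthetases, several of which ATF4 is known to control, had 1 increase, WARS1 (0.66 ± 0.14), and 7 decreases, among them MARS1 (-0.90 ± 0.24), but 4 increases and no decrease on the CPM scale. The pathway had 5 increases and 1 decrease without chaetocin replicate 1, and 5 and none without replicate 2. No synthetase was called in either case.

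Thiol and glutathione genes under NRF2 mostly rose or were not called. Of 29 genes 25 are listed, 11 rose and 1, the mitochondrial reductase TXNRD2, fell, with a median of 0.30. MAFG, the partner protein with which NRF2 binds DNA, stood at 168 and 163 with chaetocin, against 19.1 and 23.6 with DMSO (2.90 ± 0.15, adjusted p 0.000314). SRXN1, which repairs peroxiredoxins, stood at 228 and 236 with chaetocin, against 60.5 and 60.2 with DMSO (1.93 ± 0.12, adjusted p 0.000422). GCLM, a subunit of the first enzyme of glutathione synthesis, rose by 1.88 and OSGIN1 by 1.65, while TXNRD1, the cytosolic thioredoxin reductase, rose by 0.64 and TXN by 0.46. The mRNA of NRF2 itself, NFE2L2, was not called (-0.29 ± 0.15, adjusted p 0.167). On the CPM scale 17 members rose and none fell, and without chaetocin replicate 1 or replicate 2, 3 rose in each case and none fell. Genes of haem, iron and copper, HMOX1 included, gave 3 increases and 6 decreases of 18 (1 and none without chaetocin replicate 1, 1 and 2 without replicate 2), with FTL, a ferritin chain, at 0.90, the iron importer SLC11A2 at -1.48 ± 0.21 and the copper pump ATP7B at -0.98 ± 0.16.

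Immediate early genes, which respond to kinase signals without new protein, had the largest median of the lists with at least 8 listed members. Of 27, all listed, 20 rose and 4 fell, with a median of 1.59. FOSB stood at 46.3 and 41.9 with chaetocin, against 0.79 and 0.76 with DMSO (4.67 ± 0.20, adjusted p 0.000197). EGR1 stood at 271 and 274 with chaetocin, against 26.0 and 29.6 with DMSO (3.25 ± 0.13), and JUN at 85.3 and 75.3 with chaetocin, against 8.19 and 9.43 with DMSO (3.05 ± 0.16). Each of these transcription factors was at least several times higher in both chaetocin libraries. ARC, a synaptic capsid-like protein, rose 17.7-fold (3.94 ± 0.20). ZFP36L1 (-1.92), BTG2 (-1.24), IER3 (-0.74) and SRF (-0.53) fell. The count of increases was 20 on the CPM scale as well, 15 without chaetocin replicate 1 and 14 without replicate 2, with 1 decrease in each of those 2 cases.

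The negative feedback genes of MAP kinase signalling and the ERBB receptors went the other way from the immediate early genes: 6 of 24 listed members rose and 15 fell, with a median of -0.80. The phosphatases DUSP2 (2.51 ± 0.20), DUSP8 (2.16 ± 0.23) and DUSP1 (2.05 ± 0.19) rose. DUSP6, which acts on ERK, stood at 15.7 and 14.9 with chaetocin, against 61.7 and 61.0 with DMSO (-1.94 ± 0.14, adjusted p 0.000514). PHLDA1 stood at 10.1 and 10.8 with chaetocin, against 56.3 and 55.0 with DMSO (-2.31 ± 0.15, adjusted p 0.000422), and the receptors ERBB2 (-1.51), ERBB3 (-1.03) and EGFR (-0.81) fell with the Sprouty inhibitors SPRY4, SPRY2 and SPRY1. On the CPM scale 6 rose and 9 fell; without chaetocin replicate 1 there were 1 and 2, and without replicate 2 there were 3 and 2.

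**Figure D3:**
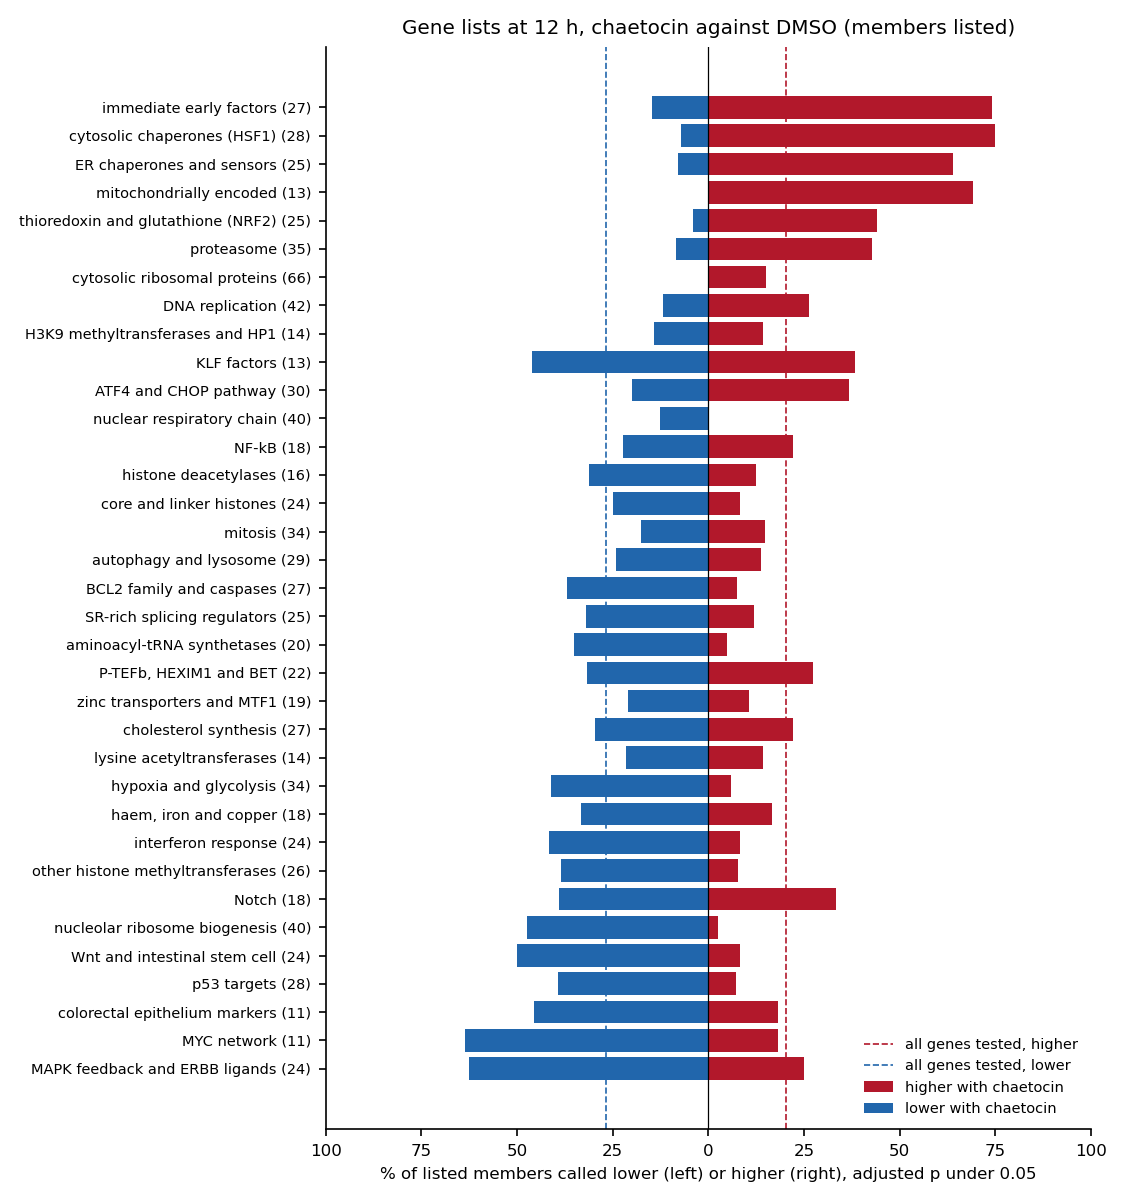
Share of the listed members of each gene list called higher (red, to the right) or lower (blue, to the left) with chaetocin at 12 h, for lists with at least 8 listed members, ordered by median difference. Dashed lines are the shares over all genes tested, 20.2% higher and 26.8% lower. Chaperones, immediate early and mitochondrially encoded genes extend far past the red line, and the MAP kinase feedback and MYC network lists far past the blue line.

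Proteasome and mitochondrially encoded genes held more increases than decreases, while few ribosomal protein genes and no nuclear respiratory chain gene rose. Of 35 proteasome genes 15 rose and 3 fell, with PSMD7, a lid subunit, at 219 and 233 with chaetocin, against 127 and 104 with DMSO (0.97 ± 0.14, adjusted p 0.00313). Of 13 mitochondrially encoded genes 9 rose and none fell, for example MT-CO1, a cytochrome oxidase subunit, at 6021 and 7815 with chaetocin, against 3893 and 3328 with DMSO (0.93 ± 0.19, adjusted p 0.00868). Of 66 cytosolic ribosomal proteins 10 rose and none fell, with a median of 0.22; this is a smaller share than the 20.2% over all genes. These counts depend on the scale more than those of chaperones. On the authors' CPM scale 22 proteasome genes, 13 mitochondrially encoded genes and 50 ribosomal protein genes rose and none fell. None of the 3 lists had a call without chaetocin replicate 1 or without replicate 2. Of 40 nuclear genes of the respiratory chain none rose and 5 fell, led by SDHA (-1.08 ± 0.17), while 13 rose and 1 fell on the CPM scale. The share of 5 in 40 is smaller than the 26.8% that fell over all genes, and the list median was -0.01 beside -0.16 for all genes.

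Ribosome biogenesis in the nucleolus and the MYC network were lower. MYC, the transcription factor that drives growth, stood at 55.1 and 43.4 with chaetocin, against 164 and 174 with DMSO (-1.77 ± 0.16, adjusted p 0.000699, and 0.0241 and 0.0348 without chaetocin replicates 1 and 2). MXD1, an antagonist of MYC, stood at 12.7 and 11.8 with chaetocin, against 1.38 and 0.53 with DMSO (2.79 ± 0.27, adjusted p 0.000866). In the network of 11 listed genes 2 rose and 7 fell (2 and 2 on the CPM scale). Of 40 nucleolar genes 19 fell and 1, NOP58 (0.56), rose, with a median of -0.44. POLR1C, a subunit of RNA polymerases I and III, stood at 27.0 and 26.0 with chaetocin and at 111 in both DMSO libraries (-2.03 ± 0.13, adjusted p 0.000422). RRS1 (-2.24), NOP16 (-1.76) and the polymerase I subunits POLR1A (-1.61) and POLR1B (-1.34) fell too. On the CPM scale 11 fell and 5 rose. Without chaetocin replicate 1 or replicate 2, 3 fell in each case and none rose, and the MYC network had 1 increase and 1 decrease.

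Among Wnt and intestinal stem cell genes 2 of 24 listed members rose and 12 fell, with a median of -0.46, and 4 rose and 9 fell on the CPM scale. AXIN2, the feedback target of beta-catenin, stood at 4.49 and 4.3 with chaetocin, against 25.4 and 20.8 with DMSO (-2.15 ± 0.20, adjusted p 0.00078). SOX4 stood at 6.31 and 5.87 with chaetocin and at 45.4 and 37.8 with DMSO (-2.58 ± 0.18, adjusted p 0.00047). SOX9 (-1.68), the receptor EPHB2 (-1.21) and CTNNB1, beta-catenin itself (-0.99), also fell, and WNT3 rose by 1.83. Of the colorectal epithelium markers, CDX2 (-1.85 ± 0.20), EHF (-1.56 ± 0.24), ELF3 (-0.97 ± 0.14), HNF4A (-0.90) and KRT19 (-0.82) fell, and MUC2 and KRT20 rose. In the Wnt list 1 gene rose and 3 fell without chaetocin replicate 1, and likewise without replicate 2. Notch genes were split, with 6 of 18 higher and 7 lower: NRARP, a feedback inhibitor, rose by 2.84 ± 0.18 and the effectors HES4 by 2.23 and HEY1 by 1.68, while NOTCH2 (-1.31), NOTCH3 (-1.16) and RBPJ (-1.21) fell. The Notch counts were 3 and none without chaetocin replicate 1, and 2 and none without replicate 2.

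Hypoxia and glycolysis genes fell in 14 of 34 listed cases and rose in 2, with a median of -0.28. HIF1A, the oxygen-regulated factor, stood at 20.2 and 26.9 with chaetocin, against 56.3 and 44.5 with DMSO (-1.07 ± 0.20, adjusted p 0.0071). Its hydroxylases' genes EGLN1 (-1.90 ± 0.29) and HIF1AN (-1.88 ± 0.20) and VHL (-1.02) fell with it. VEGFA, the angiogenic factor, stood at 59.6 and 57.8 with chaetocin, against 20.9 and 22.2 with DMSO (1.4 ± 0.14, adjusted p 0.000957). The split was even on the CPM scale, 5 higher and 5 lower, and 2 fell and none rose without chaetocin replicate 1, and likewise without replicate 2.

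Of 28 p53 targets 11 fell and 2 rose (5 and 3 on the CPM scale), with a median of -0.47. CDKN1A, the cell cycle inhibitor p21, stood at 36.9 and 36.5 with chaetocin, against 63.8 and 70.5 with DMSO (-0.85 ± 0.14, adjusted p 0.00424). PMAIP1, the pro-apoptotic BH3-only protein NOXA, stood at 47.3 and 57.5 with chaetocin, against 18.3 and 13.0 with DMSO (1.69 ± 0.21, adjusted p 0.00174). BAX rose by 0.56, whereas BIK (-1.45 ± 0.24), BOK (-1.24 ± 0.20) and the caspases CASP6 (-1.40 ± 0.26) and CASP8 (-0.96) fell. In all, 2 of 27 listed genes of the BCL2 family and caspases rose and 10 fell, or 5 and 4 on the CPM scale. Over all genes 20.2% rose and 26.8% fell. The median of the BCL2 and caspase list was -0.16, the same as for all genes. Neither list kept a call without chaetocin replicate 1 or without replicate 2.

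Sterol genes split within their pathway. IDI1, the isopentenyl isomerase, stood at 313 and 322 with chaetocin, against 33.8 and 21.2 with DMSO (3.52 ± 0.22, adjusted p 0.000422). INSIG1, which retains the sterol sensor in the ER, stood at 105 and 88.0 with chaetocin, against 15.5 and 14 with DMSO (2.63 ± 0.16, adjusted p 0.000422). HMGCS1 (1.33) rose too, while SQLE, the squalene epoxidase (-1.05), and SREBF1 (-0.89), a sterol-regulated factor, fell. Of 27 listed genes 6 rose and 8 fell, against 8 and 5 on the CPM scale, and 2 rose and none fell without chaetocin replicate 1 or without replicate 2. The shares of 6 and 8 of 27 are near those over all genes, 20.2% higher and 26.8% lower.

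Cell cycle genes were called in both directions, and only the increases of replication genes exceeded the share over all genes (20.2% higher, 26.8% lower). DNA replication genes had 11 increases and 5 decreases of 42, among them RFC4 (1.41 ± 0.13) and DTL (1.33 ± 0.14) against RFC5 (-1.11 ± 0.16), and mitosis genes 5 and 6 of 34. On the CPM scale replication genes had 18 increases and 3 decreases, and mitosis genes 7 and 1. CDC25B, the phosphatase that starts mitosis, stood at 24.7 and 22.8 with chaetocin, against 113 and 132 with DMSO (-2.32 ± 0.15, adjusted p 0.000422). UBE2C, a ubiquitin enzyme of the anaphase complex, stood at 520 and 516 with chaetocin and at 248 and 250 with DMSO (1.06 ± 0.12, adjusted p 0.0012). No replication gene was called without chaetocin replicate 1 or without replicate 2, and 1 mitosis gene was, lower.

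Among chromatin genes, EP300 stood at 10.5 and 10.6 with chaetocin and at 14.9 and 10.6 with DMSO (-0.23 ± 0.22, adjusted p 0.418), and CREBBP at 11.4 and 12.2 with chaetocin and at 16.2 and 13.2 with DMSO (-0.29 ± 0.19, adjusted p 0.259). Neither was called, and on the authors' CPM scale both differences were positive (0.10 and 0.05). SUV39H1 was not called (-0.52 ± 0.18, adjusted p 0.0562, but 0.0272 without DMSO replicate 1, and called lower where all 10 libraries of 12 h share the spread), and EHMT2, the methyltransferase G9a, fell to 38.2 and 36.8 with chaetocin, against 53.6 and 70.9 with DMSO (-0.70 ± 0.17, adjusted p 0.0182, but 0.156 on the CPM scale and 0.185 and 0.197 without chaetocin replicates 1 and 2). CBX5, the heterochromatin protein HP1 alpha, stood at 55.2 and 64.9 with chaetocin, against 21.8 and 12.4 with DMSO (1.80 ± 0.27, adjusted p 0.00313). Of the 14 genes of H3K9 methyltransferases and HP1, 2 rose and 2 fell, and 5 rose and none fell on the CPM scale. The shares of 2 in 14 are under those over all genes, 20.2% higher and 26.8% lower. Other histone methyltransferases had 2 increases and 10 decreases of 26, with KMT2A at -1.77 ± 0.21 and KMT2B at -1.47 ± 0.30, and 4 of each on the CPM scale. Histone deacetylases had 2 and 5 of 16, with HDAC7 at -1.58 ± 0.21 and SIRT7 at 1.4 ± 0.16. Their share of increases is under that over all genes and their share of decreases near it. The deacetylase median was -0.08 beside -0.16 for all genes. Linker histones H1-10 (-2.16 ± 0.18) and H1-4 (-1.40 ± 0.28) fell, and H2BC12 rose by 1.74 ± 0.20. HEXIM1, the inhibitor of the elongation kinase P-TEFb, stood at 102 and 103 with chaetocin, against 46.6 and 55.2 with DMSO (1.00 ± 0.14, adjusted p 0.00281). In the leave-out of chaetocin replicate 1, and in that of replicate 2, 2 histone genes were called, lower, and no member of the other chromatin lists named here was.

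Metallothioneins and SLC30A1 were lower, while MTF1 was higher. The 4 metallothioneins listed of 11 were called lower: MT1X stood at 57.0 and 52.7 with chaetocin, against 128 and 168 with DMSO, and MT2A at 624 and 539 with chaetocin, against 885 and 1318 with DMSO. MT1E stood at 442 and 410 with chaetocin, against 652 and 923 with DMSO, and MT1F at 4.27 and 3.86 with chaetocin, against 6.46 and 9.82 with DMSO. The differences were -1.4 ± 0.17, -0.90 ± 0.21, -0.86 ± 0.19 and -0.83 ± 0.25 in that order, each with the chaetocin values under both DMSO values. Group values did not overlap for 75.0% of all genes tested. SLC30A1, the zinc exporter that MTF1 controls, stood at 0.6 and 1.15 with chaetocin, against 4.49 and 2.9 with DMSO (-1.32 ± 0.25, adjusted p 0.00744). MTF1 itself rose, to 12.0 and 12.7 with chaetocin, against 5.54 and 5.33 with DMSO (1.05 ± 0.20, adjusted p 0.00681). MT1X, with 4 metal response elements upstream, was the metallothionein called on the CPM scale as well (-1.04), while the other 3 were not (adjusted p 0.0711 to 0.143). None of the 6 genes kept its call without chaetocin replicate 1 or without replicate 2. Reads can be split among the MT1 paralogs, whose sequences are alike. Of 19 listed zinc transporters and MTF1, 2 rose, MTF1 and SLC39A9 (0.85), and 4 fell, SLC30A3 (-1.38 ± 0.26) among them. On the CPM scale 3 rose and 2 fell. The shares of 2 and 4 in 19 are under those over all genes, 20.2% higher and 26.8% lower. The list median was -0.25 beside -0.16 for all genes.

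Further lists had calls in both directions, beside 20.2% higher and 26.8% lower over all genes. The shares of the autophagy, NF-kB and acetyltransferase lists were near or under these. KLF factors gave 5 increases and 6 decreases of 13, with KLF10 at 1.93 ± 0.17 and KLF13 at -1.92 ± 0.21, and autophagy and lysosome genes 4 and 7 of 29. SQSTM1, the autophagy receptor p62, stood at 577 and 567 with chaetocin, against 176 and 261 with DMSO (1.41 ± 0.20, adjusted p 0.00258). Interferon response genes gave 2 increases and 10 decreases of 24. Among the decreases, IFIT1 (-1.42 ± 0.14) stood at 0.07 and 0.18 with chaetocin, against 2.19 and 1.84 with DMSO. Among the increases, TRIM22, an antiviral ubiquitin ligase (3.53 ± 0.20), stood at 11.2 and 13.1 with chaetocin. Its DMSO values were very low, 0.16 and 0.12. NF-kB genes gave 4 of each among 18, with NFKB1, a subunit of the factor, at -1.53 ± 0.22. Lysine acetyltransferases gave 2 and 3 of 14, P-TEFb and BET genes 6 and 7 of 22, and SR-rich splicing regulators 3 and 8 of 25, with CLK1, a kinase of SR proteins, at 1.61 ± 0.23. On the CPM scale the increases and decreases were 5 and 5 for KLF factors, 9 and 1 for autophagy, 5 and 5 for interferon, 4 and 1 for NF-kB, 3 and 2 for acetyltransferases, 8 and 3 for P-TEFb and 7 and 2 for SR genes. Leaving out chaetocin replicate 1 left 1 and none for KLF factors, 1 and 2 for interferon and 1 and none for NF-kB; leaving out replicate 2 left none, 1 and 1, and 1 and none, and the other 4 lists had no call in either case.

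Calls differed by the level of a gene with DMSO. Of 2765 genes with a mean DMSO value of 1 or less, 60.5% rose and 3.36% fell, with a median of 0.61. Of 6126 genes with a mean over 10 and up to 100, 9.19% rose and 39.5% fell, with a median of -0.41. The table keeps genes that pass the authors' minimum in some group, so a gene silent with DMSO is listed only where a treated group has it, and its share of increases is fixed in part by that choice. Of the 274 genes listed at 0 in both DMSO libraries, 247 were called higher, with chaetocin values between 0.17 and 42.2 among the 247.

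Several markers of other cell types had low values with DMSO. Those near 0 with DMSO could be listed only through a treated group, so that their direction is fixed by the listing. Of 12 blood and immune markers 4 are listed and were called higher: HBA2 (148 and 116 with chaetocin, 3.2 and 1.88 with DMSO), HBA1 (51.8 and 65.3 with chaetocin, 0.28 and 2.14 with DMSO), CD68 (9.62 and 5.88 with chaetocin, 1.46 and 1.44 with DMSO) and CD14 (3.09 and 2.33 with chaetocin, 0.02 and 0.13 with DMSO). PTPRC, CD3E, LYZ and HBB of that list are not in the table. Of 6 endothelial markers 5 are listed, at low values, with a sum of 5.91 to 5.94 with chaetocin, against 0.08 to 0.15 with DMSO, and CLDN5 is not. The liver marker ALB is listed at 3.2 and 4.31 with chaetocin and at 0 with DMSO, and SERPINA1, the other liver marker listed, was not called (0.14). TUBB3, a neuronal tubulin that carcinoma lines also express, stood at 816 and 769 with chaetocin, against 118 and 166 with DMSO (2.49 ± 0.18, adjusted p 0.00049), while SYT1 (0.13), MAP2 (0.58) and RBFOX3 (-0.11), the other neuronal markers listed, were not called. Of fibroblast markers only COL1A1 is listed, at -0.59 (adjusted p 0.129). The part of other cells in these values was not tested.

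A difference between the effects of chaetocin at 12 h and at 5 h was called for a limited set of genes. Before adjustment, 2990 of 14066 genes had a p under 0.05 in limma. With 2 libraries per group, a gene that was not called may still differ between the times. The difference at 12 h minus the difference at 5 h, each against DMSO of its own time, was called for 615 of 14066 genes listed at both times (4.37%), 488 upward (3.47%) and 127 downward (0.903%). The largest share of upward calls among the lists with at least 8 listed members was in the ATF4 and CHOP pathway, with 12 of 30. TRIB3, higher by 2.28 at 12 h, stood at 34.9 and 34.8 with chaetocin against 45.1 and 45.5 with DMSO at 5 h (-0.37), a change of 2.65 ± 0.22 (adjusted p 0.000525). DDIT3 was at 3.47 at 12 h and 1.46 at 5 h (change 2.01), and ATF3 at 3.96 at 12 h and 1.76 at 5 h (change 2.21). Of the cytosolic chaperones 2 of 27 were called, both upward, a share above the 3.47% over all genes. HSPA1A, among them, grew by 2.46. DNAJB1 was not called, at 2.59 at 12 h and 2.76 at 5 h (change -0.17 ± 0.25, adjusted p 0.74, limma). HSPA1B, which shares reads with HSPA1A, changed by 1.09 ± 0.27 and was not called (adjusted p 0.0563, limma). SRXN1 (2.17 ± 0.19), MAFG (1.97), IDI1 (2.13), NRARP (2.33) and TRIM22 (3.41 ± 0.25) were also called upward. The count was 250 and 269 without chaetocin replicates 1 and 2 at 12 h, and 306 and 336 without those at 5 h. It was 318 and 290 without DMSO replicates 1 and 2 at 12 h, and 382 and 652 without those at 5 h. With the replicate number as a block it was 397.

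MYC was lower at both times, by 1.77 at 12 h and by 3.12 at 5 h, and the change of 1.36 ± 0.23 was called (adjusted p 0.011). SOX4 (-2.58 at 12 h, -2.68 at 5 h) and GEMIN7 (-2.92 at both) gave changes of 0.10 and 0 that were not called. SLC2A1 was at -2.48 at 12 h and -0.24 at 5 h, with 187 and 124 with chaetocin against 148 and 218 with DMSO at 5 h, and its change was -2.24 ± 0.33 (adjusted p 0.00573). EPN3 and EHF also changed downward (-2.71 and -2.37), and their DMSO levels differed between the times: EPN3 stood at 14.8 and 18.4 at 12 h, against 1.61 and 3.36 at 5 h, and EHF at 12.1 and 10.1 at 12 h, against 2.98 and 3.45 at 5 h. The part of this difference between the DMSO groups in these changes was not tested.

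**Figure D4:**
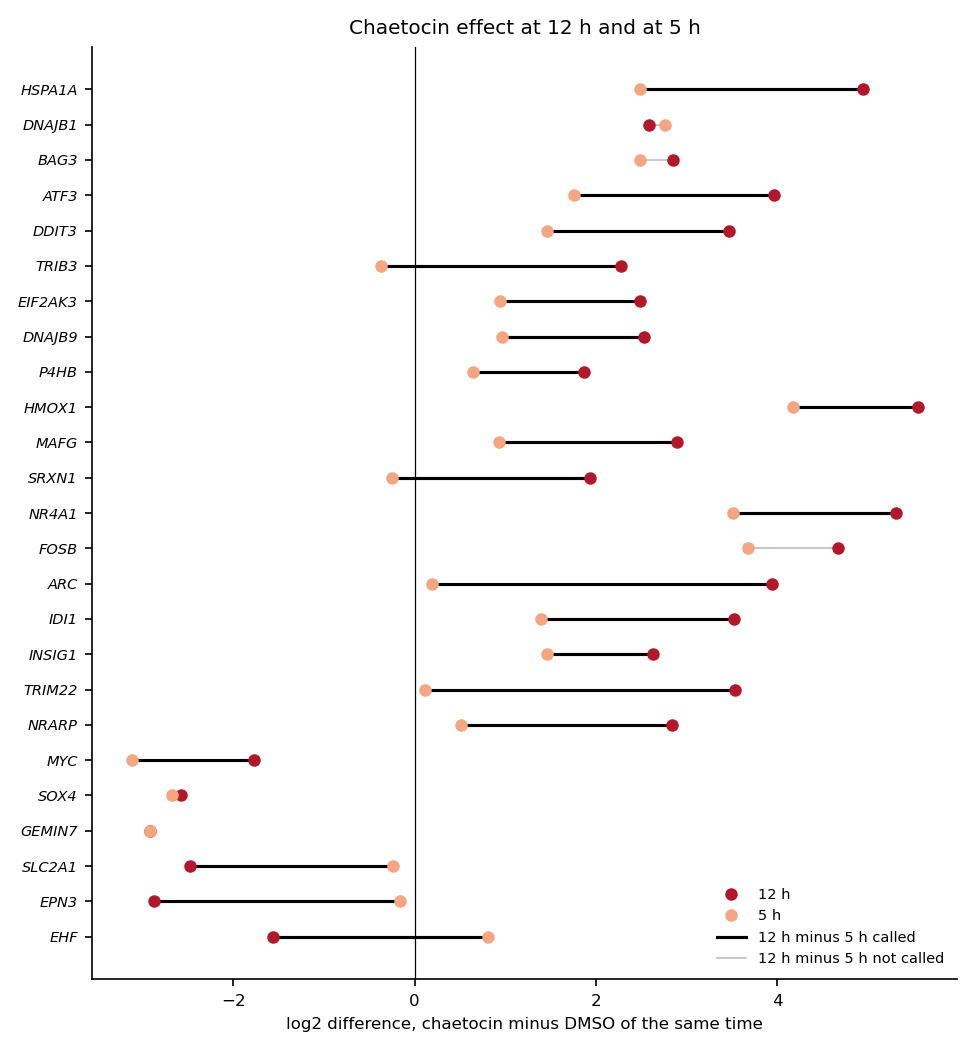
Log2 difference of chaetocin minus DMSO of the same time for 25 genes at 12 h (dark red) and 5 h (light orange), joined by a black line where the change between times was called and by a grey line where it was not. TRIB3, SRXN1, ARC and TRIM22 sit between 1.93 and 3.94 at 12 h and between -0.37 and 0.19 at 5 h, while DNAJB1, SOX4 and GEMIN7 hardly differ between times.

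Chaetocin was set against 2 other compounds at the same dose and time, and p-values were adjusted over all genes within each of these 2 pairs. The comparisons share chaetocin libraries with the comparison with DMSO. Against MeS-chaetocin, which the labels call its sulfide-depleted analog, 8273 genes differed (53.8%), 3413 higher (22.2%) and 4860 lower (31.6%) with chaetocin. NR4A1 stood at 434 and 353 with chaetocin, against 10.5 and 12.7 with MeS-chaetocin, a difference of 4.97 ± 0.15 (95% interval 4.61 to 5.33, adjusted p 2.66e-05). SLC2A1 stood at 52.5 and 44.4 with chaetocin, against 373 and 394 with MeS-chaetocin (-2.96, interval -3.25 to -2.68). HMOX1 was at 39.2 and 38.2 with MeS-chaetocin (4.78, interval 4.47 to 5.08) and HSPA1A at 21.9 and 17.9 (4.64, interval 4.21 to 5.07). MT1X was at 133 and 107 with MeS-chaetocin and lower with chaetocin (-1.11, interval -1.51 to -0.71, adjusted p 0.00174). GEMIN7 (-3.04), EPN3 (-2.98) and NR2F1 (-2.76) were further large decreases, and HBA1 (5.48) and CLDN6 (5.39) further large increases. EP300 did not pass (-0.16, interval -0.68 to 0.37), nor did MTF1 (0.59, interval 0.08 to 1.10, adjusted p 0.0547). Without chaetocin replicate 1 or 2 the count was 5287 or 5011.

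Against chetomin, the other intact compound, 723 genes differed (4.7%), 526 higher (3.42%) and 197 lower (1.28%) with chaetocin. This count depended on single libraries: it was 65 without chetomin replicate 1, 0 without chetomin replicate 2 (2092 at an unadjusted p under 0.05), 188 and 222 without chaetocin replicates 1 and 2, and 1514 and 1468 without DMSO replicates 1 and 2, in limma each time. OVOL1, an epithelial transcription factor, stood at 115 and 101 with chaetocin, against 18.7 and 16.5 with chetomin (2.55 ± 0.15, interval 2.20 to 2.89, adjusted p 0.000488). HBA2 stood at 148 and 116 with chaetocin, against 18.5 and 21.4 with chetomin (2.66, interval 2.16 to 3.16), and HSPA1A at 553 and 484, against 195 and 182 with chetomin (1.45, interval 1.08 to 1.82). HSPA1B, which shares reads with HSPA1A, stood at 6760 and 5684 with chaetocin, against 5015 and 4396 with chetomin. It was not called (0.40, interval 0.00 to 0.80, adjusted p 0.235 in limma). Higher with chetomin were LINC00659, at 88.8 and 73.6 with chaetocin against 525 and 514 with chetomin (-2.67, interval -3.01 to -2.32), and IGF2-AS, at 17.6 and 16.9 with chaetocin against 59.1 and 61.3 with chetomin (-1.75, interval -2.16 to -1.34). HBA1 (3.08), LHB (2.94), a hormone subunit, and DBIL5P (2.55), a pseudogene, were the other large increases, and TIMM9 (-1.51), a mitochondrial import chaperone, UPP1 (-1.49), uridine phosphorylase, and PIP4P2 (-1.30) the other large decreases.

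Many genes did not pass between the intact compounds. The difference of MYC was 0.07 (interval -0.31 to 0.45, adjusted p 0.861), that of MT1X 0.33 (interval -0.03 to 0.70), that of DDIT3 -0.24 (interval -0.52 to 0.04), that of DNAJB1 -0.25 (interval -0.53 to 0.03) and that of EHMT2 -0.01 (interval -0.38 to 0.35). Of cytosolic chaperones 5 of 28 were higher with chaetocin than with chetomin and none lower, and of the ATF4 and CHOP pathway 1 of 30 was higher and 7 were lower, TRIB3 among them (-0.93 ± 0.14, adjusted p 0.00883).

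**Figure D5:**
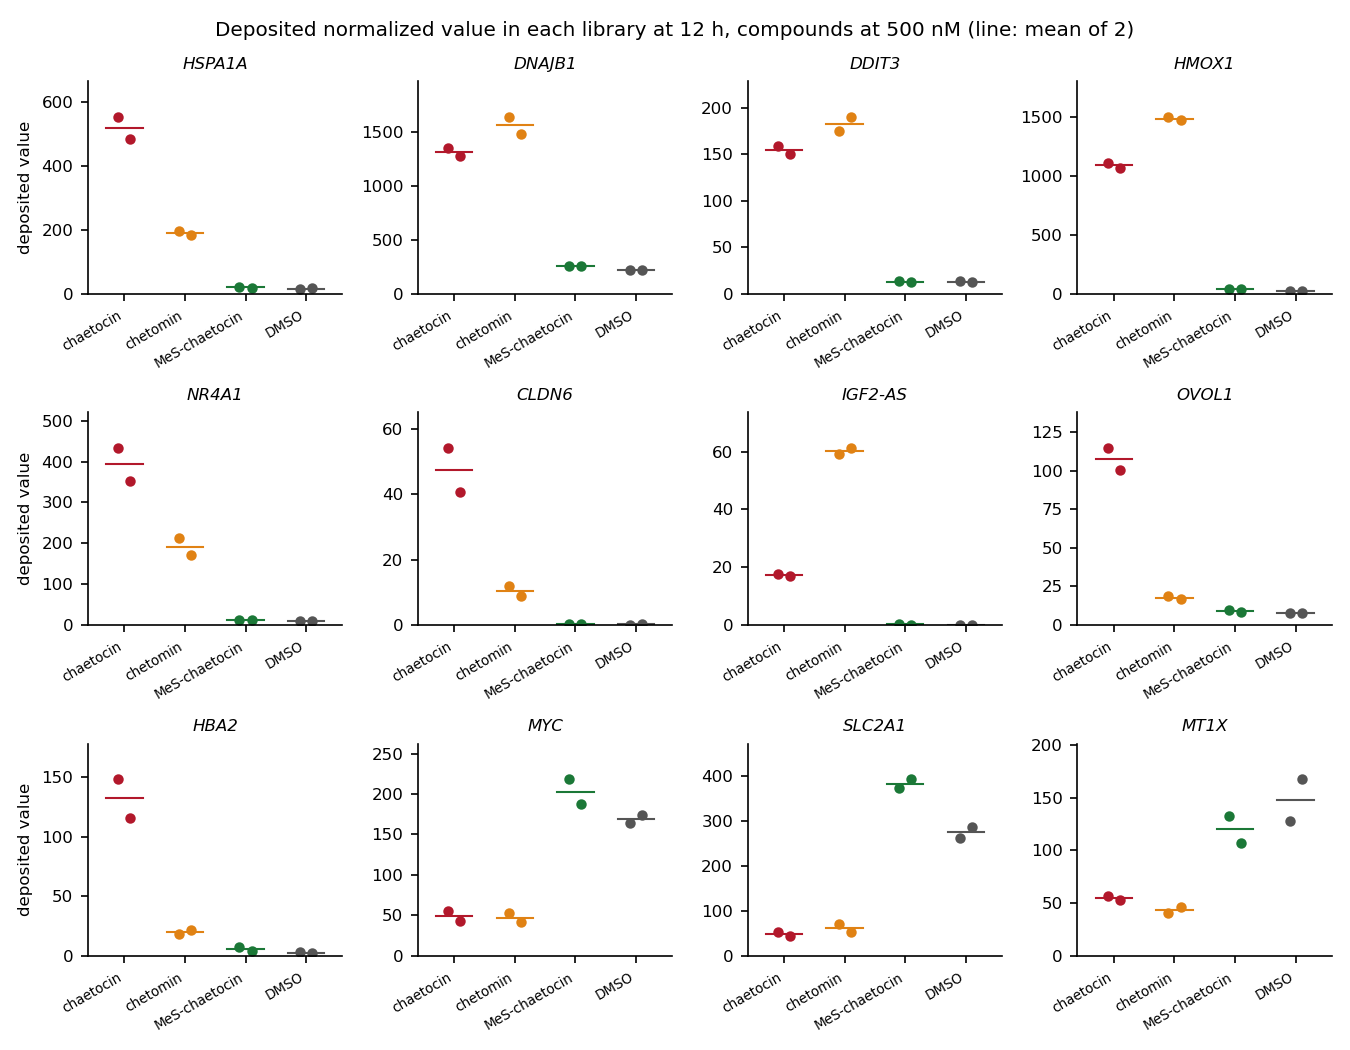
Deposited normalized value of 12 genes in each library at 12 h with chaetocin (red), chetomin (orange), MeS-chaetocin (green) and DMSO (grey); points are libraries, lines are means of 2 and each vertical axis starts at 0. MeS-chaetocin values lie near those of DMSO for HSPA1A, DDIT3 and NR4A1, chetomin lies near chaetocin for MYC and MT1X, and OVOL1 and HBA2 are much higher with chaetocin than with chetomin.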

How the data were processed

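RNA was measured in HCT116 libraries made with a poly(A) directional kit, per the labels' protocols. The submitters' processing notes name STAR 2.5.2b, GRCh38, RSEM 1.3.3 and edgeR; the sources used here give no annotation and no strand setting. The authors deposited normalized values per library (signal, not counts), a mean CPM signal per group, a log2 fold change and a p-value with its q-value, whose test the file headers do not name. An effective depth was recovered for the DMSO libraries at 12 h alone (34.3 and 28.7 M reads), so that of chaetocin libraries is unknown.

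Samples were grouped by compound and time as titled. limma 3.58.1 (R 4.3.3; lmFit, eBayes with trend; two-sided) was fitted to log2(value + 1), a scale that understates changes of low genes. It used 4 libraries for chaetocin against DMSO, 8 for the change between times and 6 for each pair of compounds. Of 15528 gene IDs, 15485 matched GENCODE 29 and 15421 the gene-names table. The members and the gene lists were chosen with earlier results of these data known. Named genes were 13 always given, the 12 largest called changes each way (mean CPM of at least 5, groups apart), 5 each way in every other comparison and up to 4 called members per list. Other genes given with a value, and those whose promoter is shown, were chosen after their values were seen. Some genes that the rule selects are not reported here. The procedure was tested on simulated data. Alternatives were the scaling, the pseudocount (0.1 or 5), a filter (a value of at least 1 in at least 2 libraries), a replicate block, leaving out each library, a robust prior, the spread of all 10 libraries of 12 h, a size threshold and the authors' q-value.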

Additional observations from a re-analysis of the deposited data

Results flagged for a closer look

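The effect of chaetocin at 12 h differed from its effect at 5 h for 615 genes, by limma's interaction of compound and time over 8 libraries with Benjamini-Hochberg adjustment over all genes. Among named genes the difference of the 2 effects, 12 h minus 5 h on the log2 scale, was largest upward for IGF2-AS (4.09), AC005336.2 (3.79), ARC (3.75), PPP1R27 (3.43), TRIM22 (3.41), CLDN6 (3.19), TRIB3 (2.65), DBIL5P (2.62), CYSRT1 (2.60), IFITM3P2 (2.58), LHB (2.52) and HSPA1A (2.46). It was smaller for NRARP (2.33), HBA2 (2.22), ATF3 (2.21), SRXN1 (2.17), IDI1 (2.13), DDIT3 (2.01), MAFG (1.97), DUSP1 (1.94), SETD1B (1.81), NR4A1 (1.80), WNT3 (1.66), DNAJB9 (1.57), DUSP8 (1.56) and EIF2AK3 (1.55). The least upward differences called among them were those of SIRT7 (1.44), HMOX1 (1.37), MYC (1.36), P4HB (1.22), INSIG1 (1.17), SQSTM1 (1.15), VEGFA (1.09), MAP1LC3B (0.99) and TEK (0.90). Downward differences were those of EPN3 (-2.71), EHF (-2.37), SLC2A1 (-2.24), MAGI1 (-2.08), L3MBTL3 (-2.04), PIP4P2 (-1.50) and WNT16 (-1.28). The interaction says that the effects at the 2 times differ; for MYC the effect at 12 h was the smaller decrease. Groups of 2 libraries are too small for a search for single libraries that stand apart.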

How the results depend on the processing

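Among the 164 named results, the direction against DMSO turned in EP300 (0.10 on the authors' CPM scale and 0.15 in the authors' deposited table) and CREBBP (0.05 on the CPM scale), none of them called in the comparison. Calls were lost for 16 on the CPM scale, 10 under median-of-ratios scaling, 8 by the authors' q, 5 with a replicate block and 2 with a pseudocount of 5, and for 97 and 96 without chaetocin replicates 1 and 2. SUV39H1 was called where all 10 libraries share the spread, and SUV39H1 and COL1A1 without DMSO replicate 1 and with crossed numbers. The causes were not tested. The count of 7230 called genes became 3354 with a difference of at least 1 (1570 higher, 1784 lower). By the authors' q-value 5390 were higher, and on the CPM scale 2140 were lower. Leaving out single libraries gave 1633 to 7939 called, 1442 to 3195 higher and 168 to 4771 lower. The change between times was called for 256 genes with a pseudocount of 0.1 and 250 to 652 with single libraries left out; the counts were 5011 to 9319 against MeS-chaetocin and 0 to 1514 against chetomin. Where 1 library is left in a group, it is assumed to vary like the others. Same-numbered chaetocin and DMSO libraries deviated with r = -0.25 and no label pairs them. With the replicate block 7056 genes were called against DMSO, 397 for the change between times, 7428 against MeS-chaetocin and 620 against chetomin. Crossing the numbers, an alternative chosen after seeing the data, gave 9050. Unknown depth limits what low values can show.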
